A study of Mus musculus with 8 samples.

Results

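The 7 cadherins described here, in the kidneys of mouse embryos, are Cdh1, Cdh2, Cdh3, Cdh4, Cdh6, Cdh11 and Cdh16. They were taken by symbol, 7 of the 24151 gene symbols in the tables, and the transcripts listed for a symbol were summed. Levels are in TPM, a library's transcript share after division by transcript length, so levels of different genes may be compared. Of the 7, 5 (Cdh1, Cdh2, Cdh4, Cdh6 and Cdh11) reached the minimum of 1 TPM in at least 2 libraries and were tested. Cdh3 and Cdh16 did not reach it in any library.

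Cadherins are calcium-dependent adhesion proteins that hold neighbouring cells together. The outer part of a classical cadherin pairs with a cadherin on the next cell, and its inner tail binds beta-catenin and p120-catenin, which tie the junction to actin through alpha-catenin. In the developing kidney, E-cadherin (Cdh1) belongs to the ureteric bud, its collecting duct derivatives and distal tubule epithelium. N-cadherin (Cdh2), R-cadherin (Cdh4) and K-cadherin (Cdh6) appear in the mesenchyme and in the nephron epithelium that forms from it, cadherin-11 is a mesenchymal and stromal cadherin, P-cadherin (Cdh3) is an epithelial cadherin, and Ksp-cadherin (Cdh16) is a kidney tubule cadherin whose short tail lacks the beta-catenin site.

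The kidneys came from embryos of the outbred ICR stock. Pregnant dams, from matings of mice aged 8 weeks, were given chlorpyrifos (CPF), an organophosphate insecticide, dissolved in DMSO, at a daily subcutaneous dose of 5 mg/kg over gestation days 7.5 to 11.5. Control dams received the same volume of DMSO alone, so both groups carried the solvent. At E12.5, and every 2 days up to E18.5, 1 library per agent was made, giving 4 CPF and 4 DMSO libraries. The sources used here do not give how many embryos or litters a library pooled.

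Every library held RNA of kidney: the sum of 10 kidney identity genes, among them Pax2, Pax8 and Wt1, was 247 to 428 TPM under CPF, and 281 to 551 TPM under DMSO, and none of those with 1 listed transcript was at 0 throughout. Other tissues were also present, mostly in CPF libraries. The 13 liver genes summed to 214 to 6145 TPM under CPF, and 24.4 to 1027 TPM under DMSO, the 9 adrenal cortex genes to 71.3 to 583 and 49.6 to 69.8 TPM, and the 8 pancreas genes to 51.4 to 1824 and 35.3 to 63.8 TPM. The polymerase III transcripts Rpph1 and Rmrp together took 19.3 to 21.8% of the TPM in CPF libraries but 19.6% in the youngest and 41.8% in the oldest DMSO library, where less of the total was then shared by the other genes. The median of all 13677 tested genes was 0.53 higher in CPF than in DMSO at E18.5 on the log2(TPM + 1) scale, and 0.16 higher once libraries were scaled without these transcripts.

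Cadherin-11 was by far the most abundant of the 5 tested members in each library. Cdh3 and Cdh16 have several listed transcripts, and such genes read low throughout these data. Their place in this order is therefore not known, and the shares below take their values as listed. Of the summed cadherin TPM, Cdh11 made up 75.7, 76.3, 71.4 and 75.1% of the DMSO total with increasing age, and 78.6, 79.8, 64.0 and 53.4% of the CPF total. These shares do not change when a library is multiplied by a constant, but quantile normalization can change them. The Cdh1 share went from 3.52 to 10.9% in DMSO and from 3.84 to 26.3% in CPF kidneys. The Cdh2 share went from 14.4 to 6.59% in DMSO and from 11.3 to 3.23% in CPF kidneys. Cdh6 held 3.71 to 7.10% in DMSO kidneys and 3.82 to 4.46% in CPF kidneys up to E16.5, and 14.8% in the CPF kidneys of E18.5. Cdh4 held 1.51 to 3.44% in all 8 libraries. The CPF library of E18.5 had the smallest Cdh11 share and the largest Cdh1 and Cdh6 shares. The CPF library of E16.5 came next for Cdh11 (64.0%) and Cdh1 (21.3%), but not for Cdh6 (4.46%).

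Cdh11 (GRCm38 chromosome 8, 102632095 to 102785493) was lower at E18.5 than at E12.5 in both groups. It read 674, 495, 449 and 393 TPM in DMSO and 608, 505, 399 and 413 TPM in CPF kidneys, youngest stage first as in all such series here, values that rest on an estimated 22199 to 47131 reads. The groups overlapped, and the log2 differences between agents were -0.15, 0.03, -0.17 and 0.07. As deposited it was lower at each step in DMSO kidneys, as 26.5% of all genes were. Scaled without Rpph1 and Rmrp the DMSO levels were 839, 649, 651 and 676, lower only at the first step. Between E18.5 and E12.5 it differed by -0.67 ± 0.29 (SE, n = 2 libraries per stage), which did not pass (adjusted p = 0.173 with limma) and was -0.42 scaled without Rpph1 and Rmrp. Across the stages CPF minus DMSO was -0.06 ± 0.20 (SE, n = 4 stage pairs, adjusted p = 0.962 with limma). Under the 3 other scalings it was -0.23, -0.23 and -0.28, and it did not pass. In order of level the E12.5 libraries were highest, and the 3 lowest (DMSO E18.5, CPF E16.5 and CPF E18.5) lay closer to each other than the residual SD of 0.087 left by stage and agent.

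N-cadherin was the member whose developmental change passed the test. Cdh2 (chromosome 18, 16588877 to 16809246) read 129, 68.9, 53.8 and 34.5 TPM in DMSO and 87.6, 63.1, 42.7 and 24.9 TPM in CPF kidneys. It was lower at each step in both groups, a course shared by 3.9% of all tested genes (8.58% in CPF alone), and 1 of 5 cadherins had it. From E12.5 to E18.5 the level dropped 3.73-fold in DMSO and 3.51-fold in CPF kidneys, a log2 change of -1.82 ± 0.29 over both (adjusted p = 0.00236 with limma). It was 1 of 5 tested cadherins past the threshold, against 8.4% of all genes. The median of all genes in this comparison was -0.21. Without the filter on low values the call was lost (adjusted p = 0.0956 with limma).

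Cdh2 was also lower in CPF than in DMSO kidneys at 4 of 4 stages, 1 of 5 cadherins with a pattern found in 3% of tested genes. Under the 3 other scalings Cdh11 was lower at 4 of 4 stages as well, so 2 of 5 were, against 8.74 to 12.1% of genes. As deposited, none of the 5 was higher at 4 of 4 stages, as 13.8% of genes were. The stage differences of Cdh2 were -0.55, -0.12, -0.33 and -0.45 on the log2 scale. Their mean of -0.36 ± 0.21 (SE, n = 4 stage pairs) did not pass (adjusted p = 0.651 with limma). This SE is limma's moderated value, which draws on other genes. The residual SD of Cdh2 itself was 0.13, so its 4 differences vary less than the SE implies. With libraries scaled without Rpph1 and Rmrp the mean was -0.53, and with quantile normalization it was -0.56. The ranges of the 2 groups overlapped. The nephron progenitor list, cells in which N-cadherin is also made, moved in the same direction. Of its 8 tested genes with 1 listed transcript, 7 were below 0 (median -0.69, against 0.15 for all genes). Its 10 genes summed to 312 to 467 TPM under CPF, and 462 to 662 TPM under DMSO. Lists of nephron epithelium went the other way. Above 0 were 9 of 9 proximal tubule genes (median 0.59), 5 of 6 of the loop of Henle and distal tubule (0.61) and 5 of 5 podocyte genes (0.57). The part of any of these cells in the Cdh2 difference was not tested. In bulk kidney, fewer cells of a type and less RNA per cell cannot be told apart.

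E-cadherin read higher at later stages, most of all in the CPF kidneys of E16.5 and E18.5. Cdh1 (chromosome 8, 106603350 to 106670247) read 31.3, 41.1, 64.8 and 56.9 TPM in DMSO and 29.7, 30.6, 133 and 204 TPM in CPF kidneys. The CPF libraries of E16.5 and E18.5 lay above all 6 others, and only the step up to them exceeded the residual SD of 0.72. That SD is itself widened by these libraries, so it is no independent yardstick. As deposited Cdh1 was higher at each step in CPF kidneys, as 13.7% of genes were. In DMSO kidneys 4.33% of genes were, and 2.34% in both. Scaled without Rpph1 and Rmrp, Cdh1 read 39.0, 53.8, 93.9 and 97.8 in DMSO kidneys, and under each of the 3 other scalings it was higher at each step in both groups. Under these scalings 9.44 to 14.6% of genes were higher at each step in CPF kidneys, and 9.32 to 10.2% in DMSO kidneys. As deposited, the Cdh1 level at E18.5 was 6.85 times that of E12.5 in CPF and 1.82 times in DMSO kidneys. Over both groups the change was 1.79 ± 0.49 (SE, n = 2 libraries per stage), just outside the threshold (adjusted p = 0.0543 with limma). It passed with libraries scaled to coding transcripts (2.04, adjusted p = 0.0109 with limma) and with quantile normalization (2.01, adjusted p = 0.0277). Leaving out the CPF library of E18.5 lowered it to 0.97 (adjusted p = 0.193), and leaving out the DMSO library of E18.5 raised it to 2.61 (adjusted p = 0.00819). Without either E14.5 library (adjusted p = 0.000573 for CPF and 0.000598 for DMSO) or either E16.5 library (0.0379 and 0.0433) it passed. Without the E12.5 library of CPF (1.35, adjusted p = 0.279) or DMSO (2.23, adjusted p = 0.103), or without the filter on low values (adjusted p = 0.349), it did not.

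Between agents Cdh1 differed by -0.07, -0.41, 1.02 and 1.82 on the log2 scale. In TPM the CPF library held 2.04 times the DMSO level at E16.5 and 3.58 times at E18.5. A log2 ratio of 1 or more was reached by 7.44% of all genes at E16.5 and by 20.4% at E18.5, and each stage sets 1 library against 1. Scaled without Rpph1 and Rmrp the E18.5 difference was 1.39, and 10.2% of genes reached 1 at that stage. Across stages the difference was 0.59 ± 0.35 (SE, n = 4 stage pairs, adjusted p = 0.673 with limma), and 0.18 without the E18.5 pair. The fitted slope was 0.51 log2 units per day in CPF and 0.16 in DMSO kidneys. This difference in slope of 0.36 ± 0.11 did not pass (adjusted p = 0.133 with limma), and was 0.23 with quantile normalization. No gene passed this test. An unadjusted p under 0.05 was found for 3615 of 13677 genes as deposited, and for 1374 with quantile normalization.

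The sum of the ureteric bud list was also higher in CPF kidneys at these 2 stages. The 11 ureteric bud and collecting duct genes summed to 649 TPM in CPF against 470 TPM in DMSO at E16.5, and to 857 against 451 TPM at E18.5. At E16.5 the keratins Krt8 (241 against 121 TPM) and Krt18 (284 against 144 TPM) were higher in CPF. Calb1 (99.5 against 173 TPM), Gata3, Wnt9b and Aqp2 were lower. The median log2 difference of the tested genes with 1 listed transcript was -0.28 at E16.5 and 0.93 at E18.5. At E16.5 the liver and pancreas lists summed to 6145 and 1824 TPM in CPF against 69.9 and 44.0 TPM in DMSO, and at E18.5 to 1114 and 51.4 against 45.0 and 47.7 TPM. The E14.5 liver sums were 5150 (CPF) and 1027 TPM (DMSO), and the Cdh1 levels of that stage were 30.6 and 41.1 TPM. Each stage holds 1 library per agent. Liver and pancreas epithelia also make E-cadherin, and their part in the Cdh1 difference was not tested at any stage.

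**Figure D1:**
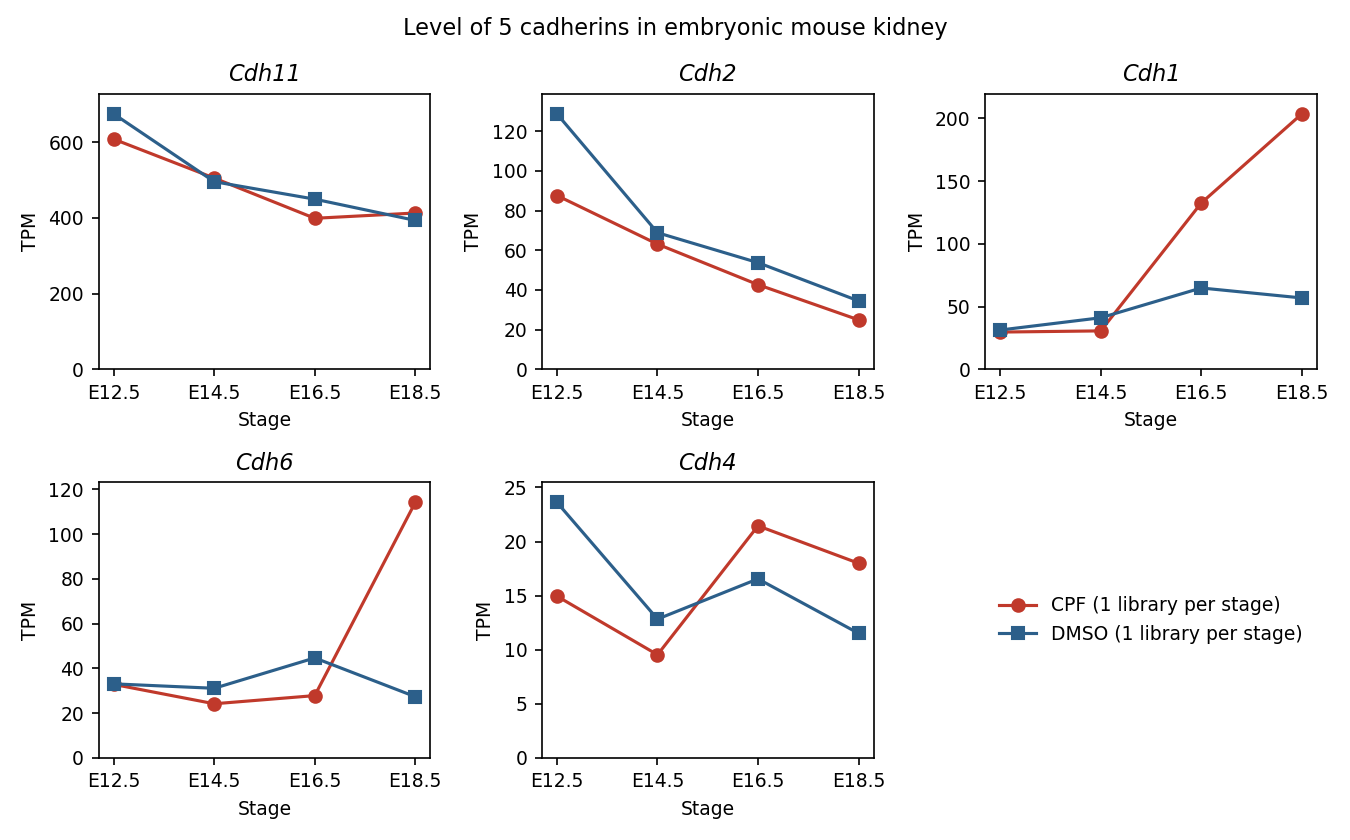
Points give the TPM of each tested cadherin at the 4 stages in CPF (red circles) and DMSO (blue squares) libraries, 1 library per point, each panel with its own axis from 0. Cdh2 is lower at each later stage in both groups, and Cdh1 and Cdh6 reach 204 and 114 TPM in the CPF library of E18.5.

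K-cadherin was high in 1 library. Cdh6 (chromosome 15, 13028699 to 13176407) read 33.1, 31.1, 44.7 and 27.3 TPM in DMSO and 32.8, 24.2, 27.8 and 114 TPM in CPF kidneys. Of the 8 libraries 7 lay between 24.2 and 44.7 TPM with no step beyond the residual SD of 0.86. That SD is itself widened by the CPF library of E18.5, so it is no independent yardstick. This library was 4.18 times its DMSO partner. Across stages CPF minus DMSO was 0.25 ± 0.41 (SE, n = 4 stage pairs, adjusted p = 0.912 with limma). The stage differences were -0.01, -0.35, -0.66 and 2.02, so without the E18.5 pair the mean turned to -0.34. E18.5 minus E12.5 was 0.75 ± 0.59 (adjusted p = 0.470 with limma). It became -0.43 (adjusted p = 0.404) without the CPF library of E18.5 and 1.93 (adjusted p = 0.00717) without the DMSO library of that stage.

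Lists of several kidney cell types were at their highest in the same library, among them the proximal tubule, whose precursors are known for K-cadherin. The 9 proximal tubule genes, among them Lrp2 and Cubn, summed to 3876 TPM in the CPF kidneys of E18.5 and 10.9 to 302 TPM in the other CPF libraries, against 11.8 to 699 TPM in DMSO kidneys. None of the 9 was at 0 in all libraries. Between E16.5 and E18.5 in DMSO kidneys, 1 library each, this list went from 340.3 to 699 TPM and Cdh6 from 44.7 to 27.3 TPM. Scaled without Rpph1 and Rmrp, Cdh6 went from 64.7 to 47.0 between them. In the same 2 libraries of E18.5, podocyte genes summed to 620 TPM in CPF against 121 TPM in DMSO, loop of Henle and distal tubule genes to 493 against 211 TPM, and endothelial genes to 378 against 124 TPM. The part of these cells in the Cdh6 level was not tested.

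Of the 7 cadherins, 1 had a promoter entry in the RefSeq table of GRCm38.p6, and it is shown because Cdh6 was the member with the sharpest departure in a single library. The window is chr15:13173626-13173925 on the minus strand, 250 bases before to 50 after the start site, written from 5′ to 3′, with GC boxes in capitals:
Cdh6: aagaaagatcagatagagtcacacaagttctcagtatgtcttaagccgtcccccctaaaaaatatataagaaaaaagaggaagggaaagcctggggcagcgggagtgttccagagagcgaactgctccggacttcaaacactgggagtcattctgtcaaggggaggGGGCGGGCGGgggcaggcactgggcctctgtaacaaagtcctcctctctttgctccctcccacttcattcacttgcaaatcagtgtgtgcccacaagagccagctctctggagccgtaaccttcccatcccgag
The start site of this window lies inside the Cdh6 span given above, which on the minus strand begins at 13176407. Sequence at that outer end was not examined. The window is 53% G and C. The GC box GGGCGG occurred 2 times, starting 84 and 80 bases before the start site and sharing 2 bases, and 35.7% of the 32851 promoter windows held it on either strand. The E2-box CAGGTG, bound by Snail and Zeb repressors, the HNF1 motif GTTAAT and the TCF/LEF core CTTTGA were not in this window on either strand, and 20.2, 7.10 and 16.0% of all windows held them.

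R-cadherin was the lowest of the 5 tested members and showed no steady course. Cdh4 (chromosome 2, 179442423 to 179899377) read 23.6, 12.8, 16.55 and 11.5 TPM in DMSO and 14.9, 9.53, 21.4 and 18.0 TPM in CPF kidneys, on an estimated 645 to 1867 reads. No step in the order of its 8 levels exceeded the residual SD of 0.42. CPF was lower at E12.5 and E14.5 (-0.63 and -0.39) and higher at E16.5 and E18.5 (0.36 and 0.60), with a mean of -0.02 ± 0.28 (SE, n = 4 stage pairs, adjusted p = 0.993 with limma). The higher value at E18.5 shrank to 0.20 when libraries were scaled without Rpph1 and Rmrp and turned to -0.09 with quantile normalization. E18.5 minus E12.5 was -0.36 ± 0.40 (adjusted p = 0.617 with limma), and it turned to 0.045 without the DMSO library of E12.5 and to 0.050 without that of E18.5.

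P-cadherin and Ksp-cadherin were listed at or near 0. Cdh3 (chromosome 8, 106510852 to 106556911), with 2 RefSeq transcripts in the tables, was listed at 0 in all 8 libraries. Cdh16 (chromosome 8, 104601915 to 104624396), with 3, read 0.0544, 0.166, 0.0228 and 0.0205 TPM in DMSO and 0, 0.159, 0 and 0.0353 TPM in CPF kidneys. Only 1 of its 3 transcripts had a value above 0, and that value rests on an estimated 0 to 5 reads. Genes with several listed transcripts were low throughout these tables (median 0.142 TPM, against 3.64 TPM for genes with 1), and beta-catenin itself (Ctnnb1, 2 transcripts), which every cell makes, read 0.0273 to 0.583 TPM. The low values of Cdh3 and Cdh16 are given as listed values only, and the change of these cadherins over the stages was not detectable in these tables.

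Across the 5 tested members, CPF minus DMSO passed for 0 in limma, at a background of 0.161% of all genes. An unadjusted p under 0.05 was found for 0 of the 5, and for 1306 of all 13677 genes. Of the 5, 2 were above 0 and 3 below, with a median of -0.02, against 0.15 for all genes. At E18.5 the log2 differences were 1.82 for Cdh1, 2.02 for Cdh6, 0.60 for Cdh4, 0.07 for Cdh11 and -0.45 for Cdh2, against the all-gene median of 0.53. A log2 ratio of 1 or more was reached by 2 of 5 at that stage, against 20.4% of genes, or 6.36 to 10.2% under the 3 other scalings. At E16.5 it was reached by 1 of 5, against 7.44% of genes (0 of 5 under the 3 other scalings, with Cdh1 at 0.82 to 0.89). At E14.5 and E12.5 it was reached by 0 of 5, against 6.18 and 6.04% of genes. A ratio of -1 or less was reached by 0 of 5 at any stage, against 2.5, 2.16, 3.2 and 2.02% of genes, youngest stage first, although Cdh2 at E18.5 was at -1.16 with quantile normalization. Scaling without Rpph1 and Rmrp lowered the 5 values at E18.5 to 1.39, 1.61, 0.20, -0.37 and -0.88. Cdh1 and Cdh6 remained above the all-gene median at that stage and Cdh2 and Cdh11 below it under each of the 4 scalings.

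**Figure D2:**
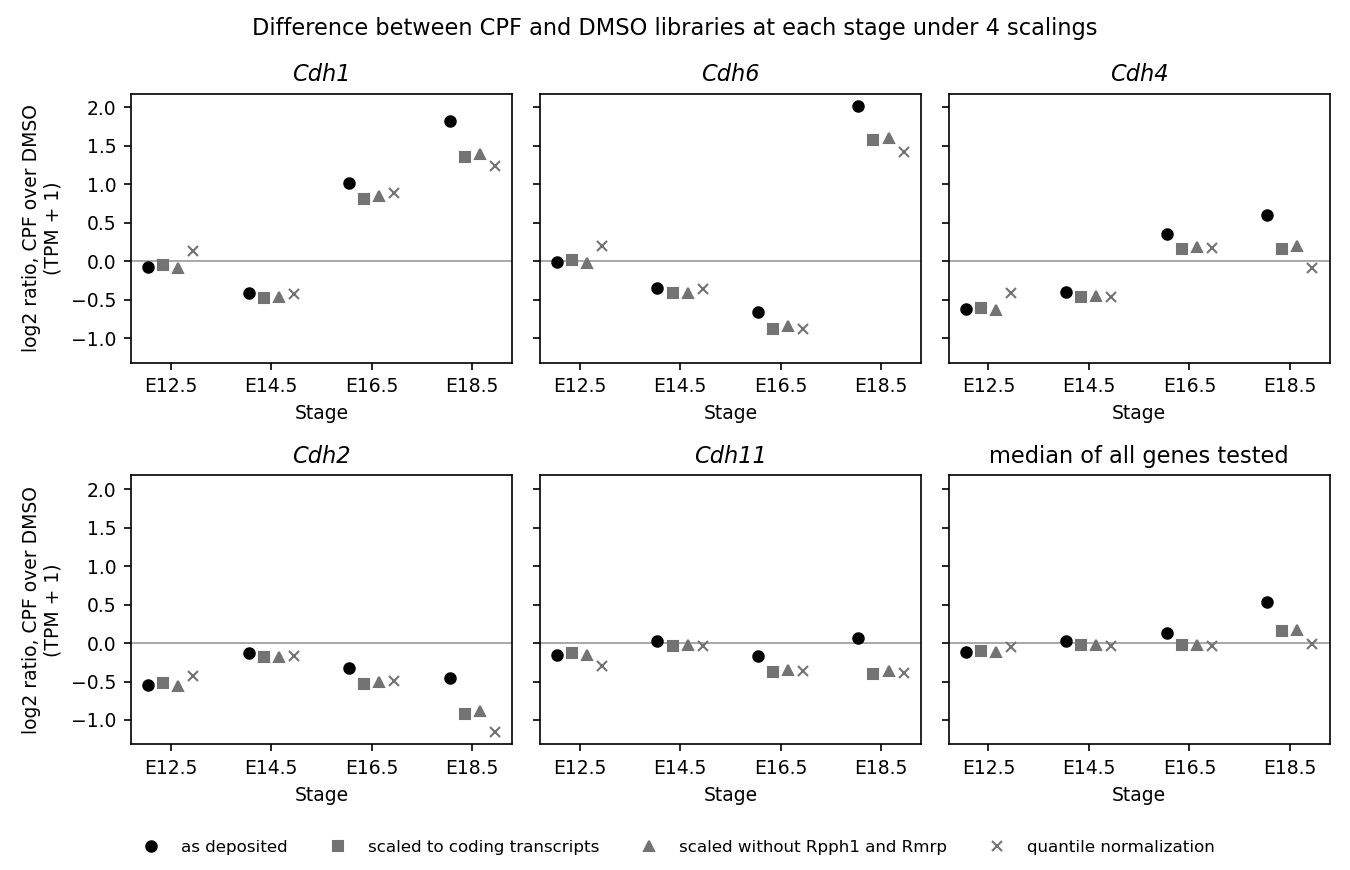
Symbols give the log2 ratio of CPF over DMSO (TPM + 1) at each stage for 5 cadherins and the median of all genes tested, under 4 scalings of the libraries. At E18.5 Cdh1 and Cdh6 are 1.24 and 1.42 or more under each scaling, while Cdh11 moves from 0.07 as deposited to -0.40 scaled to coding transcripts.

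Ratios of TPM within a library do not change when the library is multiplied by a constant, but quantile normalization can change them. The tested log2 ratios, with 1 TPM added to each gene, do depend on the scale. The ratio of Cdh1 to Cdh2 TPM read 0.243, 0.597, 1.21 and 1.65 in DMSO kidneys, and 0.339, 0.486, 3.11 and 8.16 in CPF kidneys. Both groups went from more N-cadherin to more E-cadherin transcript between E14.5 and E16.5. The log2 ratio of Cdh1 to Cdh2, with 1 TPM added to each, was higher in CPF by 0.95 ± 1.11 (SD, n = 4 stage pairs, exact sign-flip test, two-sided p = 0.25, adjusted p = 0.75 over 4 ratios), and by 0.51 without the E18.5 pair. It was higher in CPF at 3 of 4 stages, by 0.48, 1.35 and 2.27, and at E14.5 it differed by -0.29. Cdh11 exceeded Cdh1 21.5, 12.1, 6.93 and 6.91-fold in DMSO, and 20.5, 16.48, 3.01 and 2.03-fold in CPF kidneys. The log2 ratio of Cdh1 to Cdh11 differed by 0.64 ± 1.00 (SD, n = 4, exact p = 0.375, adjusted p = 0.75), or 0.28 without the E18.5 pair and 1.01 without the E14.5 pair, and that of Cdh4 to Cdh6 by -0.26 ± 1.03 (SD, n = 4, exact p = 0.625, adjusted p = 0.833). The fourth, Cdh16 to Cdh6, is not read, since Cdh16 rests on 0 to 5 reads. With 4 pairs the smallest p this test allows is 1 in 8.

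Among other cadherins with 1 listed transcript, 8 of 13 were tested. Of the 8, 4 fell from E12.5 to E18.5 and none rose, against 3.73% of all genes called lower, and the median was -1.44. Cdh9, Cdh10, Cdh15, Cdh18 and Cdh19 were under 1 TPM in both E18.5 libraries. They passed the filter only through earlier stages, where they read higher, so a fall was favoured in advance. The count and the median are therefore a description only. Cdh15, the M-cadherin of muscle, fell by 2.40 ± 0.41 (adjusted p = 0.00355 with limma), from 5.40 to 0.557 TPM in DMSO and 11.2 to 0.812 TPM in CPF kidneys. The skeletal muscle list fell too, with 6 of 6 tested genes called. Cdh24 fell by 1.70 ± 0.36 (adjusted p = 0.0123 with limma), from 34.6 to 8.17 TPM in DMSO and from 26.6 to 9.11 TPM in CPF kidneys. Cdh10 and Cdh9, at most 3.95 TPM in any library, fell by 1.55 ± 0.42 and 1.66 ± 0.39 (adjusted p = 0.0388 and 0.0203 with limma). Both calls were lost without either E12.5 library, and that of Cdh10 scaled without Rpph1 and Rmrp (adjusted p = 0.0501). Both were also lost without the CPF library of E18.5, and that of Cdh24 without the DMSO library of E12.5 (adjusted p = 0.0606). None of the 8 passed between agents. Cdh5, the endothelial VE-cadherin and the highest of the 8, differed by 0.35 ± 0.30 between agents (adjusted p = 0.803 with limma).

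Of 10 catenin genes 4 had 1 listed transcript and were tested. In neither comparison did any of the 4 pass, against 0.161% of all genes between agents and 8.4% with age, and beta-catenin and p120-catenin (Ctnnb1, Ctnnd1) were not tested. Ctnna1, the alpha-catenin that binds actin, read 369, 239, 252 and 206 TPM in DMSO and 259, 236, 303 and 403 TPM in CPF kidneys. It differed by 0.17 ± 0.25 between agents (adjusted p = 0.894 with limma). Jup (plakoglobin), which can take the place of beta-catenin, read 32.7, 17.5, 29.998 and 24.6 TPM in DMSO and 18.3, 16.2, 64.7 and 85.4 TPM in CPF kidneys, high in the same 2 libraries as Cdh1. Its difference was 0.48 ± 0.39 (adjusted p = 0.794 with limma), and that of Ctnnal1 0.15 ± 0.23 (adjusted p = 0.905). Of 8 junction linkers and nectins 0 passed in either comparison, with Actn4 at 0.26 ± 0.30, Vcl (vinculin) at 0.37 ± 0.23 and afadin, listed as Mllt4, at 0.16 ± 0.21 between agents. Of 8 genes of cadherin processing, which include the sheddase Adam10 (0.08 ± 0.20), the proteases Mmp14 (-0.28 ± 0.23) and Mmp2 (0.14 ± 0.26), 0 passed.

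Among 6 tested repressors of the E-cadherin gene, 2 fell, against 3.73% of all genes called lower, and 6 of 6 were below 0 between E18.5 and E12.5, with a median of -0.67 against -0.21 for all genes. Twist1 fell by 2.09 ± 0.39 (adjusted p = 0.00559 with limma), from 42.8 to 9.05 TPM in DMSO and from 30.2 to 6.48 TPM in CPF kidneys. Twist2 fell by 1.46 ± 0.37 (adjusted p = 0.0302 with limma), from 19.0 to 8.38 TPM in DMSO and from 23.5 to 5.90 TPM in CPF kidneys. The Twist2 call was lost with quantile normalization (adjusted p = 0.0583), without the CPF library of E12.5, E16.5 or E18.5 (0.176, 0.0557 and 0.0753), and without the DMSO library of E16.5 (0.0585). Between agents 0 of the 6 passed and their median was -0.04, with Zeb1 at 0.03 ± 0.21, Snai2 at 0.06 ± 0.24 and Twist1 at -0.20 ± 0.28.

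Of 10 tested epithelial regulators and partners, 10 were above 0 between E18.5 and E12.5, with a median of 1.44, and 2 rose, against 4.67% of all genes called higher. Ehf, an epithelial transcription factor, rose by 2.21 ± 0.43 (adjusted p = 0.0073 with limma) and the membrane protease Prss8 by 2.01 ± 0.53 (adjusted p = 0.0479 with limma). Prss8 read 22.2, 26.7, 40.0 and 39.5 TPM in DMSO and 15.0, 20.1, 55.2 and 148 TPM in CPF kidneys. Without the CPF library of E18.5 both calls were lost (1.98, adjusted p = 0.0724 for Ehf, and 0.99, adjusted p = 0.139 for Prss8), and that of Prss8 also without the CPF library of E12.5 (1.42, adjusted p = 0.246). Between agents 0 of the 10 passed, with a median of 0.43 against 0.15 for all genes, and Epcam, Prss8 and Spint1 differed by 0.40 ± 0.23, 0.35 ± 0.37 and 0.64 ± 0.36. The desmosome list, the other kind of cadherin junction, held 6 tested genes, of which Perp rose by 3.13 ± 0.44 with age (adjusted p = 0.000927 with limma). It was 1 of 6 called higher, against 4.67% of all genes. Between agents 6 of 6 were above 0, with a median of 0.84 against 0.15 for all genes, and 0 passed. Perp was at 1.66 ± 0.31 (adjusted p = 0.0577 with limma), Dsp at 1.06 ± 0.34 and Pkp2 at 0.38 ± 0.27.

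Genes typical of mesenchyme did not share one course. Of 8 tested, Acta2, the smooth muscle actin, rose by 2.21 ± 0.31 with age (adjusted p = 0.00095 with limma). Tgfbi, a matrix protein, fell by 0.99 ± 0.28 (adjusted p = 0.0497 with limma), a call lost under each of the 3 other scalings and without any 1 of the 8 libraries. With age 8.4% of all genes were called. The list median was 0.09, against -0.21 for all genes. Between agents Acta2 was 1 of 8 called higher in CPF, against 0.154% of all genes. It differed by 1.501 ± 0.22 (adjusted p = 0.0222 with limma), and the other 7 did not pass. This call was lost under 8 of 16 alternatives, among them each of the 3 other scalings (1.33 to 1.34, adjusted p = 0.0531 to 0.218) and leaving out the E16.5 pair (1.29, adjusted p = 0.0646). The list median between agents was 0.39, against 0.15 for all genes, while Cdh11, the mesenchymal cadherin, was at -0.06 ± 0.20.

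**Figure D3:**
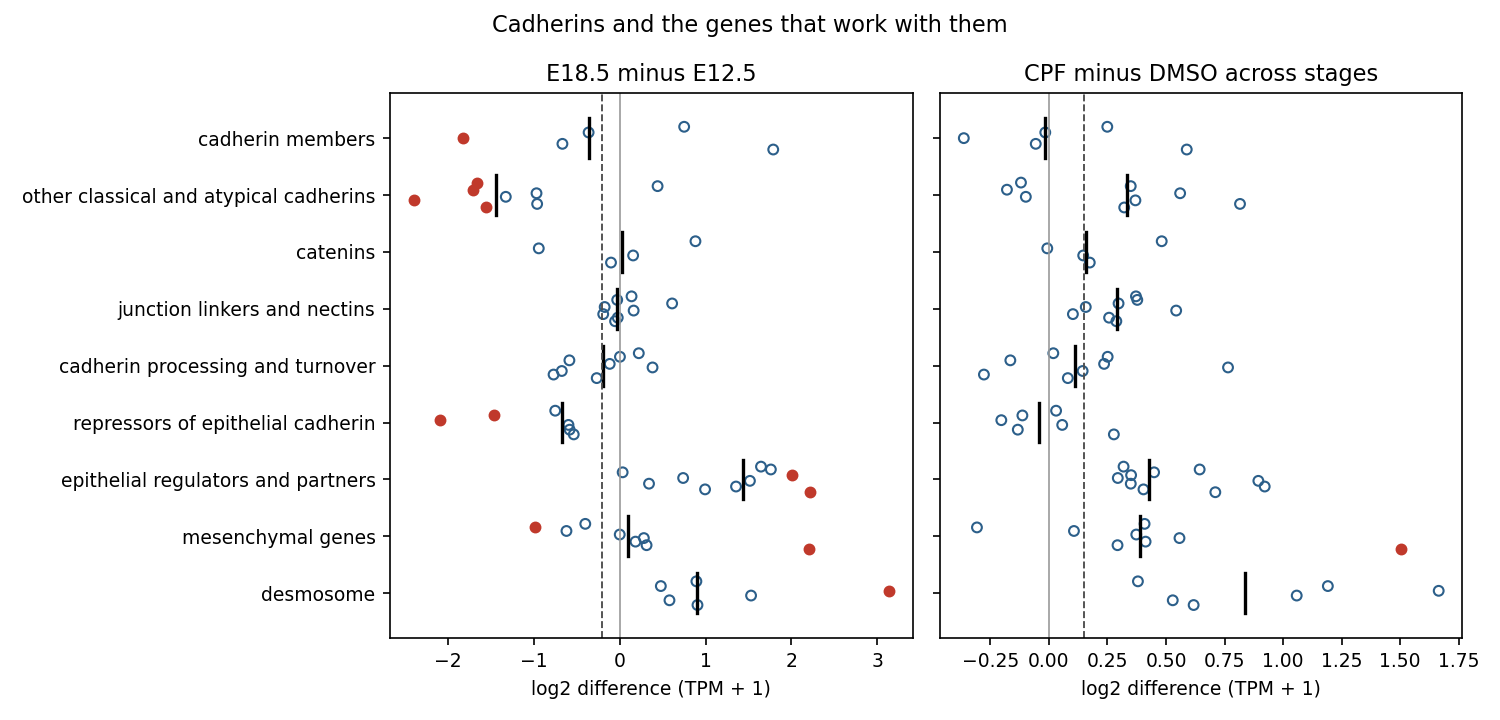
Each circle is 1 tested gene with 1 listed transcript, placed by its log2 difference (TPM + 1) between E18.5 and E12.5 (left) or between CPF and DMSO across stages (right), filled red where the adjusted p is under 0.05. Black bars are list medians and the dashed line is the median of all genes (-0.21 and 0.15). Cdh2 is the filled member on the left.

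Patterns over the 8 libraries are given as a description, since the libraries share stages and scaling. Cdh2 and Cdh11 ran together (Pearson r = 0.93, Spearman rho = 0.90), and Cdh1 ran opposite to both (r = -0.83 with Cdh2 and -0.75 with Cdh11). Among 8435 candidate genes with 1 listed transcript and a mean of at least 5 TPM, those most like Cdh2 were Smarce1, Hmga2 and Tmeff1 (r = 0.99, 0.99 and 0.98). Hmga2, a chromatin protein of fetal growth, fell from 590 to 34.7 TPM in DMSO and from 318 to 26.2 TPM in CPF kidneys and put the 8 libraries in the same order as Cdh2 (rho = 1). Cdh1 was most like Neurl1b, Ssh3 and Tmem30b (r = 0.996, 0.995 and 0.993), and Cdh11 most like Prtg, Zfp521 and Bmper (r = 0.99, 0.98 and 0.98). Cdh4 was most like Gna11, Fbxl6 and Notch3 (r = 0.99, 0.98 and 0.98), each in the same order over the libraries. Cdh6 was most like Pyurf, Itgav and Dstyk (r = 0.98, 0.96 and 0.96), and in the CPF library of E18.5 the integrin subunit Itgav read 246 TPM against 95.4 to 122 TPM in the others.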

How the data were processed

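The 8 RNA-seq libraries of embryonic kidney, 2 μg of RNA each per the labels, were deposited with TPM values that the authors computed for RefSeq transcripts (32862 transcripts, each library summing to 1000000). The submitters' processing notes name Trimmomatic, STAR and mm10. The sources used here do not give how a read was counted for a transcript. For 52 transcripts, symbols listed as dates or numbers were restored by RefSeq accession, and transcripts were summed per symbol. Older names of 5 list genes were matched by accession.

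The test was limma 3.58.1 in R 4.3.3 with variance trend and robust moderation on log2(TPM + 1), for the 13677 genes that reached 1 TPM in 2 or more libraries. The model held stage and agent (residual degrees of freedom 3), and a model of agent by embryonic day had 4. Fold changes of low genes are understated on the log2(TPM + 1) scale. P-values were adjusted by the Benjamini-Hochberg method across the whole table, with calls under 0.05. With 1 library per agent at a stage, p-values between agents rest on how the difference varies between stages, not between animals. Moderation draws each gene's spread toward that of other genes. Each SE given with limma is this moderated value, which can be larger or smaller than the gene's own spread gives. The procedure was tested on simulated data. TPM keeps no depth; reads were estimated from the step that made the most low values whole multiples within 0.02 (50.8 to 58.6% of values per library), which gave 0.0609 to 0.105 TPM for 1 read in 1 kb of GENCODE M21 length. Residual SD is that of the fit with stage and agent. Coordinates are from the RefSeq table of GRCm38.p6, the assembly that mm10 names.

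The members and gene lists were chosen with earlier results of these data known. From each list the called genes were named (up to 6), otherwise the 3 with the highest mean, among genes with 1 listed transcript; pattern likeness named the 3 highest Pearson correlations per member. Alternatives were 3 other scalings, pseudocounts of 0.1 and 0.5, no filter, a filter of 5 TPM, the highest transcript per gene, moderation that is not robust, other stage terms and left-out libraries. One gene of the proximal tubule list is not reported here and was left out of its sum.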

Additional observations from a re-analysis of the deposited data

Results flagged for a closer look

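Cdh6 in the CPF kidneys of E18.5, at 114 TPM, lay far from the other 3 CPF libraries (24.2, 27.8 and 32.8 TPM): the gap to the nearest was 0.904 of the whole range, above Dixon's 95% limit for 4 samples. The 4 libraries differ in stage, so this is 1 stage standing apart and not a replicate that departs. This was 1 of 15 groups of 4 values examined. Chance flags about 1 in 20 groups when the values are independent draws from the same normal population. These groups hold different stages and share libraries, so that rate does not apply to them.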

How the results depend on the processing

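Between agents the value of a cadherin could change in 10 of 16 alternatives, and the direction of Cdh1, Cdh2 and Cdh11 did not turn in these. With age it could change in 9 of 17, with the same result for these 3 genes. No cadherin passed between agents or in slope under any. The number of genes called between agents was 22 and unstable: 0 with quantile normalization, 7 scaled to coding transcripts, 1 scaled without Rpph1 and Rmrp, 83 and 43 with pseudocounts of 0.1 and 0.5, 0 without the filter, 98 with the filter of 5 TPM, 38 with moderation not robust, 0 with stage left out (no replicate block), 0 with embryonic day as a linear covariate, 39 to 226 without one stage pair and 42 without the E14.5 and E16.5 pairs. The cause was not tested. Between E18.5 and E12.5 1149 genes were called, 0 without the filter (the calls of all 11 list genes named for age were then lost) and 629 to 1617 without one library. For slopes 0 were called under each setting. The slope difference of Cdh2 (0.0046) turned to -0.13 with quantile normalization, -0.077 scaled to coding transcripts and -0.065 scaled without Rpph1 and Rmrp, and ran from -0.049 to 0.043 without one library. That of Cdh11 (0.023) turned to -0.030, -0.059 and -0.048, and ran from -0.028 to 0.051. That of Cdh6 ran from -0.043 to 0.56 without one library. Between agents Cdh4 ran from -0.22 to 0.19 and Cdh6 from -0.34 to 0.55 without one stage pair, and with age Cdh4 ran from -0.77 to 0.050 and Cdh6 from -0.43 to 1.93 without one library. Without one stage pair the log2 ratio of Cdh1 to Cdh2 ran from 0.51 to 1.37, that of Cdh1 to Cdh11 from 0.28 to 1.01, that of Cdh16 to Cdh6, which rests on Cdh16 near 0, from -0.58 to 0.30 and that of Cdh4 to Cdh6 from -0.69 to 0.12. Libraries were paired by stage, which the replicate numbers 1 to 4 stand for here. With 1 library per agent and stage, no spread between animals is known.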
